A study of Homo sapiens with 24 samples.

Results

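PIM1, PIM2 and PIM3 are the genes of the PIM family of serine/threonine kinases, and they are 3 of the 25082 genes in the deposited table of normalised read counts. They were taken by symbol, with earlier results of these data known. All 3 passed the filter on low values (10 or more normalised reads in 3 or more libraries), as did 20154 genes in all. SET2 is an established human megakaryoblastic cell line from a myeloproliferative neoplasm that depends on JAK2 signalling for growth. Poly(A) RNA of 24 libraries was sequenced, in 8 groups of 3.

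Naive SET2 cells had no inhibitor. The acute groups were naive cells given the vehicle DMSO for 4 h, INC424 for 4 h, or INC424 for 48 h, and no DMSO group of 48 h is analysed here. The chronic groups were 4 SET2 lines persistent to BMS911543, CYT387, INC424 or SAR302503, each grown with its own inhibitor in the medium. These compounds are type I JAK inhibitors, which bind the active form of the kinase. The drug names are ruxolitinib for INC424, momelotinib for CYT387 and fedratinib for SAR302503. BMS911543 is selective for JAK2. The labels give no concentrations, do not say whether a persistent line is a clone, and do not say whether the replicates of a group were separate cultures. The p-values below therefore measure only the spread between these libraries, which may be technical, and each line is a single line per inhibitor.

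PIM kinases need no activating phosphorylation, so their activity follows mainly from how much kinase a cell makes. Their transcripts and proteins are short-lived, and PIM1 and PIM2 are textbook targets of the transcription factors STAT3 and STAT5, which JAK kinases switch on. The kinases act on regulators of cell death such as BAD, on cell cycle inhibitors such as p27, and on the start of protein synthesis, and they share many of these substrates with AKT. In JAK2-driven myeloproliferative cells PIM1 is commonly read as an output of JAK2 signalling.

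The promoters are shown because the 3 genes moved differently after JAK inhibition, and because the count table itself holds no sequence. Each is 300 bases from RefSeq (GRCh38.p14), 250 before to 50 after the annotated start, matched by symbol for 3 of 3 genes and written 5′ to 3′ along the gene. PIM1 lies on the plus strand at chr6:37169902-37170201, PIM2 on the minus strand at chrX:48918975-48919274, and PIM3 on the plus strand at chr22:49960522-49960821. Capitals mark GC boxes (GGGCGG on either strand, the core that SP1-type factors bind) and octamers (ATTTGCAT on either strand, the element of POU factors such as OCT1).
PIM1: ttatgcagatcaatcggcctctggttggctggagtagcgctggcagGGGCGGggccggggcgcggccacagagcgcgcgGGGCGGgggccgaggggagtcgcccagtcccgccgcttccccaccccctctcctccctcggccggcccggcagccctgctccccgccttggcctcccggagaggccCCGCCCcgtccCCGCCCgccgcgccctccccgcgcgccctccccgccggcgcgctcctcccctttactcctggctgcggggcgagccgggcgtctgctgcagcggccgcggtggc
PIM2: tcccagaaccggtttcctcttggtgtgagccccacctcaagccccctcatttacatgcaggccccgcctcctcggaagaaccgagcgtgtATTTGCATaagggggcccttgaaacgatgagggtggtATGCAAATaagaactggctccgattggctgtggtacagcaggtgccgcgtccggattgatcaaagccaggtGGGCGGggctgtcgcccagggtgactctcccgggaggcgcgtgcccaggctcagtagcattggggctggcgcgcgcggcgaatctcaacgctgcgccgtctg
PIM3: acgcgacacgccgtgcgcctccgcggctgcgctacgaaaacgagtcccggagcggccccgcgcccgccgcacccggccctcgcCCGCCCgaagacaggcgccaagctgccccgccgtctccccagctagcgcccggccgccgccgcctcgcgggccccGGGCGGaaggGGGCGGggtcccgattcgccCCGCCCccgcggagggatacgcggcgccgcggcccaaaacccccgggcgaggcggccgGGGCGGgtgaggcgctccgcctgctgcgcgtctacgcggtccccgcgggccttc
PIM1 holds 4 GC boxes, PIM2 holds 1 and PIM3 holds 5, while 45.0% of 35116 promoters of this length hold at least 1. PIM2 has 2 octamers, which begin 160 and 123 bases before the start and lie on opposite strands, and 1.77% of promoters hold any. The interferon-gamma-activated site to which STAT dimers bind (TTCNNNGAA) was matched in 0 of the 3 windows and in 7.66% of promoters. TATAAA was likewise matched in 0 of the 3 and in 11.5% of promoters. The motifs do not overlap one another in these windows. GC content was 79.7% for PIM1, 62.3% for PIM2 and 81.3% for PIM3, against a median of 58.7% over all promoters. These matches are descriptions of letters in a short window and say nothing of sites elsewhere in the genes.

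The libraries held 21770721 to 36160750 reads assigned to genes, and the least covered value of a PIM gene rested on 688 reads (PIM2, INC424 4 h library 3). Among 10 megakaryocyte and progenitor markers, of which those named here were picked after their values were seen, group means were 6009 to 7791 for the transcription factor GATA1 and 55928 to 99411 for the integrin ITGA2B. The receptor gene KIT was at 22815.5 in naive cells and at 2818 to 8286 in the persistent lines, and the late platelet gene PF4 at 0 in naive cells and 141 in the INC424 line. Library 2 of the CYT387 line stood apart, since squamous epithelial markers took 0.540% and stromal markers 0.587% of its reads, while megakaryocyte markers took 0.249% against 0.641% and 0.640% in libraries 1 and 3 of that line. Squamous markers took 0.103% in SAR302503 library 3 and at most 0.0243% in the other 22. PIM differences between the CYT387 line and either naive cells or another line, and those of the mean of the lines, are given with and without library 2. Those against DMSO include it. The fit uses 1 variance estimate for all groups, and the errors of comparisons without this library also depend on it.

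In what follows, levels are normalised read counts, given as mean ± SD with n = 3 libraries unless stated. Changes are fitted log2 differences from limma on log2(count + 1), with two-sided p-values adjusted by Benjamini-Hochberg over all 20154 genes and a threshold of 0.05. In such bulk RNA, fewer cells that express a gene and less of its RNA per cell cannot be told apart.

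**Figure D1:**
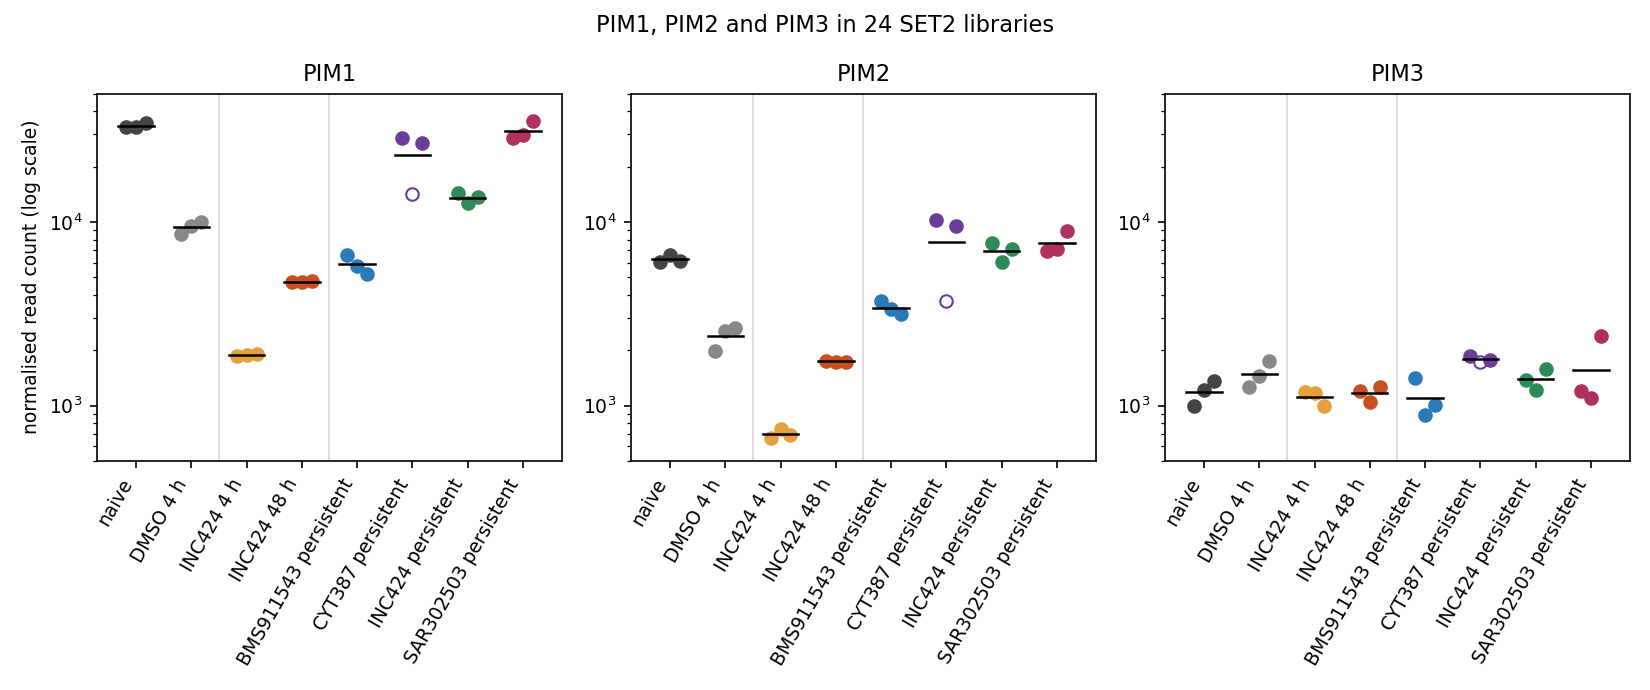
Normalised read counts of PIM1, PIM2 and PIM3 (log scale) in each library, by group, with the group mean as a line; the open circle is CYT387 library 2. PIM1 and PIM2 were lowest at 4 h of INC424 in all 3 libraries, while the PIM3 libraries lay between 894 and 2391 in all groups.

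The 2 kinds of control are given apart because they differed for this family. In untouched naive cells PIM1 was 32916, 32870.1 and 34503 in libraries 1 to 3, and in DMSO cells it was 8558, 9511 and 9936. Every naive library was far above every DMSO library, and the fitted difference of DMSO against naive was −1.84 (95% interval −2.20 to −1.48, adjusted p = 9.75e-08). PIM2 was 6068, 6642 and 6129 in naive cells and 1987, 2561 and 2634 with DMSO. It too was lower with DMSO in all libraries, by a fitted −1.40 (−1.89 to −0.91, adjusted p = 0.000129). PIM3 was 990.4, 1216 and 1356 in naive cells and 1263, 1442 and 1748 with DMSO, so the groups overlapped, and its difference of 0.32 (−0.13 to 0.77) did not pass (adjusted p = 0.309). Thus 2 of 3 PIM genes were lower with DMSO than in naive cells, where 14.6% of all genes tested were lower. In the series 9 libraries were run again or on 2 lanes, which are not told apart here. They are called run again below, and the others run once. No naive library was among the 9, whereas 2 of 3 DMSO libraries were. With a term for that in the fit PIM1 differed by −1.90 and PIM2 by −1.49. The labels do not say whether naive and DMSO cells were grown and harvested side by side, and the part of vehicle, handling or culture in this gap was not tested.

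After 4 h of INC424 PIM1 and PIM2 fell and PIM3 did not pass. PIM1 was 1863, 1891 and 1921 with INC424, all within a narrow band far below the DMSO libraries. The means were 1892 ± 29.2 against 9335 ± 706 with DMSO, which is 4.92-fold lower (log2 −2.30, 95% interval −2.66 to −1.94, adjusted p = 1.98e-08). This was the 23rd largest fall among the genes that passed.

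PIM2 was 669.8, 748 and 689 with INC424, also entirely below DMSO. Its means were 702 ± 40.5 against 2394 ± 354, a 3.38-fold fall (log2 −1.76, −2.25 to −1.27, adjusted p = 3.18e-05) and the 45th largest among the genes that passed. PIM3 was 1182, 1177 and 1001 with INC424, below the lowest DMSO library by a small margin. The difference of −0.40 (−0.85 to 0.06) did not pass (adjusted p = 0.331). Of the 3 PIM genes, 2 fell, beside 3.49% of all genes. None of the 3 overlapped between the groups, which was so for 39.1% of all genes.

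Libraries run once and libraries run again gave similar differences at 4 h. For PIM1 these were −2.15 (1 library against 1) and −2.37 (2 against 2), for PIM2 −1.53 and −1.87, and for PIM3 −0.33 and −0.43.

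At 48 h of INC424 PIM1 and PIM2 stood higher than at 4 h and PIM3 did not pass. PIM1 was 4698, 4722 and 4781 at 48 h, tightly grouped between the 4 h and the DMSO libraries. It rose by 1.32 on the log2 scale from 4 h (0.96 to 1.68, adjusted p = 2.02e-05), which is 2.50-fold. PIM2 was 1757, 1731 and 1732, likewise between the 4 h and DMSO libraries, and rose by 1.31 (0.82 to 1.80, adjusted p = 0.000544), which is 2.48-fold.

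PIM3 was 1209, 1050.2 and 1257 at 48 h, in the same range as at 4 h, and its difference was 0.07 (−0.39 to 0.52, adjusted p = 0.890). So 2 of 3 PIM genes rose from 4 h to 48 h, where 7.03% of all genes rose. The rise within libraries run once and within those run again was 1.30 and 1.33 for PIM1, and 1.34 and 1.29 for PIM2. For PIM3 the difference was 0.30 and −0.17.

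Against the DMSO cells of 4 h, the 48 h cells still held less PIM1, at 4734 ± 42.8 against 9335 ± 706 (log2 −0.98, −1.34 to −0.62, adjusted p = 0.000145). PIM2 differed by −0.45 (−0.94 to 0.04) and did not pass (adjusted p = 0.152), but passed without CYT387 library 2, which is in neither group (−0.68 to −0.21, adjusted p = 0.00241). PIM3 differed by −0.33 (−0.79 to 0.12, adjusted p = 0.266). In this comparison 1 of 3 PIM genes was lower, beside 16.4% of all genes, and none of the 3 overlapped between the groups, beside 59.9%. Within libraries run once the PIM2 difference was −0.19 and within those run again −0.59. For PIM3 these were −0.03 and −0.60, and for PIM1 −0.85 and −1.04. The control was taken at 4 h and the treated cells at 48 h, so time in culture and inhibitor cannot be told apart here.

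Set against untouched naive cells the same acute groups lay further down. PIM1 differed by −4.14 at 4 h (adjusted p = 3.51e-13), the 10th largest fall among the genes that passed there. At 48 h it differed by −2.82 (adjusted p = 1.38e-10). PIM2 differed by −3.16 at 4 h (adjusted p = 5.65e-09) and −1.85 at 48 h (adjusted p = 6.86e-06). PIM3 differed by −0.08 and −0.01 and passed at neither time (adjusted p = 0.874 and 0.980). In both comparisons 2 of 3 PIM genes fell, beside 7.03% of all genes at 4 h and 11.4% at 48 h. These contrasts share the INC424 libraries with those against DMSO.

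**Figure D2:**
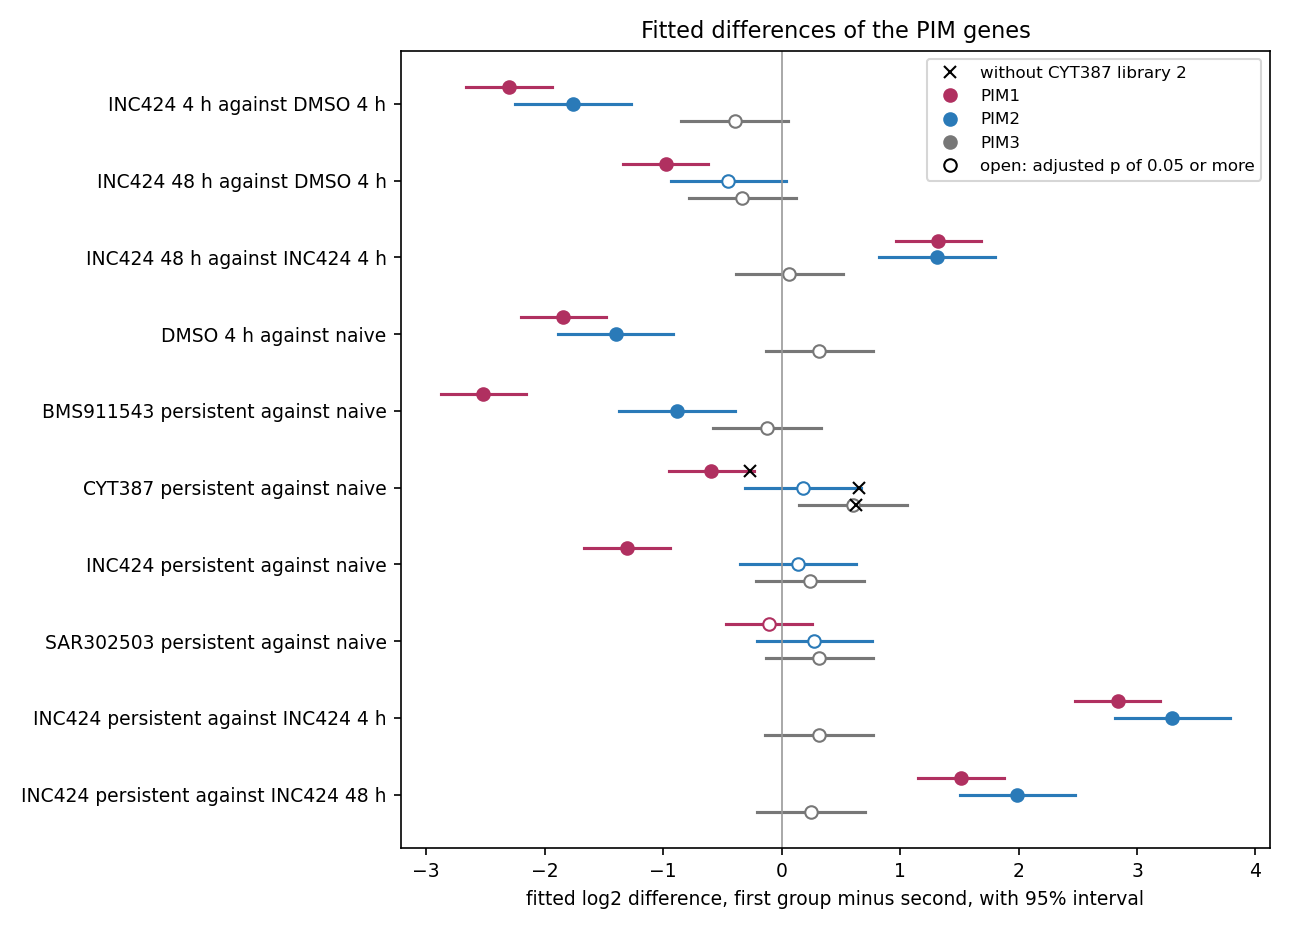
Fitted log2 differences (first group minus second) of PIM1, PIM2 and PIM3 with 95% intervals; filled circles passed at an adjusted p under 0.05, open circles did not, and a cross is the value without CYT387 library 2. At 4 h against DMSO the differences of PIM1 and PIM2 were −2.30 and −1.76, and PIM1 spread from −2.52 to −0.11 over the persistent lines against naive cells.

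The distance between family members was also compared within each library, as the difference of their log2 counts. PIM1 minus PIM2 was 1.43 ± 0.0796 at 4 h of INC424 and 1.97 ± 0.117 with DMSO, so PIM1 moved further by 0.54. The corresponding shift of PIM1 against PIM3 was −1.90, and that of PIM2 against PIM3 was −1.36. The 3 INC424 libraries lay apart from the 3 DMSO libraries in each of these 3 measures. From 4 h to 48 h the distance between PIM1 and PIM2 changed by 0.01 only, from 1.43 ± 0.0796 to 1.44 ± 0.0232, while each gained on PIM3 by 1.26 and 1.24. In an exact permutation test of 3 against 3 libraries the smallest two-sided p is 0.10, so no such shift can pass. In these exact permutation tests that p was reached in 7 of 9 (adjusted p = 0.129 over the 9), all but PIM1 minus PIM2 from 4 h to 48 h (p = 1) and PIM2 minus PIM3 at 48 h against DMSO (shift −0.12, p = 0.4).

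In the persistent lines, which grew with inhibitor present, PIM1 spanned a wide range. PIM2 was lower than in naive cells in the BMS911543 line, did not pass in the INC424 and SAR302503 lines, and in the CYT387 line passed, as higher, only without library 2. The INC424 line held PIM1 at 14418, 12601.5 and 13622, well above the acute INC424 cells and below every naive library. It was higher than after 4 h of the same compound by 2.84 on the log2 scale (adjusted p = 5.65e-11) and higher than after 48 h by 1.51 (adjusted p = 6.32e-07). Against naive cells it was lower by a fitted −1.30 (−1.66 to −0.94, adjusted p = 5.56e-06).

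PIM2 in the INC424 line was 7640.05, 6077 and 7119, overlapping the naive libraries. It was higher than at 4 h by 3.30 (adjusted p = 6.71e-10) and than at 48 h by 1.99 (adjusted p = 9.64e-07), and differed from naive by 0.14 (−0.35 to 0.63, adjusted p = 0.737). PIM3 in this line was 1380.1, 1224 and 1590.2 and passed in none of these, with differences of 0.32, 0.25 and 0.24. Of the 3 PIM genes 2 were higher in the line than at 4 h (11.4% of all genes) and 2 than at 48 h (14.5%), and 1 was lower than in naive cells (12.5%).

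The change in the INC424 line against naive cells was also set against the 4 h change against DMSO in a single contrast. It uses 4 groups that share no library, and it equals the difference of the line from 4 h plus that of DMSO from naive cells. These were 2.84 and −1.84 for PIM1 and 3.30 and −1.40 for PIM2, so the contrast depends on the gap between the controls. The change in the line was higher than that at 4 h by 0.99 for PIM1 (0.49 to 1.504, adjusted p = 0.00556). For PIM2 it was higher by 1.90 (1.21 to 2.59, adjusted p = 0.000234). PIM3 differed by 0.64 (−0.01 to 1.28, adjusted p = 0.164). In this contrast 2 of 3 PIM genes were higher, beside 8.11% of all genes.

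The BMS911543 line held the least PIM1 of the 4 lines, at 6645, 5768 and 5190.1, below all DMSO libraries. Against naive cells it was 5.72-fold lower (log2 −2.52, −2.88 to −2.16, adjusted p = 2.62e-10). PIM2 was 3702, 3355 and 3161, between the DMSO and the naive libraries, and lower than naive by a fitted −0.88 (−1.37 to −0.40, adjusted p = 0.00776). PIM3 was 1409.7, 894 and 1004 and differed by −0.12 (adjusted p = 0.746). Of the 3 genes 2 were lower, beside 14.2% of all genes.

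In the CYT387 line the values depended on library 2. PIM1 was 28567, 14112 and 26907, with library 2 at about the level of the INC424 line and the other libraries nearer to naive cells. Against naive it was lower by a fitted −0.59 (−0.95 to −0.23, adjusted p = 0.0180), and by −0.27 (−0.49 to −0.05, adjusted p = 0.0819) without library 2.

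PIM2 in this line was 10216, 3701 and 9505, so that library 2 lay below all naive libraries and the others above all of them. It differed from naive by 0.18 (adjusted p = 0.599) with library 2, and without it was higher by 0.65 (0.39 to 0.91, adjusted p = 0.000652), at 9861 ± 502 (n = 2) against 6279.7 ± 315. PIM3 was 1873, 1729 and 1769, above every naive library and with library 2 beside the others, yet its difference of 0.60 (0.15 to 1.06) just missed the threshold (adjusted p = 0.0514, and 0.0673 without library 2). Thus 1 of 3 PIM genes was lower with all libraries, beside 11.1% of all genes. Without library 2, 1 was higher, beside 1897 genes in that fit (with library 2, 11.2% of all genes were higher).

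The SAR302503 line held PIM1 at 28618, 29698 and 35224, around the naive libraries, with a difference of −0.11 (−0.47 to 0.25, adjusted p = 0.726). PIM2 was 6946, 7093 and 8915, above all naive libraries by a small margin, and its difference of 0.28 (−0.21 to 0.76) did not pass (adjusted p = 0.458). PIM3 was 1204, 1103 and 2391. Library 3, the one with the second highest share of squamous markers, gave the highest PIM3 value of the series, and without it the line's mean was 1154 ± 71.6 (n = 2) against 1188 ± 185 in naive cells. The part of those markers' source in that value was not tested. In limma 0 of 3 PIM genes changed in this line against naive cells, beside 19.3% of all genes. At an unadjusted p under 0.05 the count was also 0, as it was by edgeR and by DESeq2 on the recovered reads.

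Averaged over the 4 lines, PIM1 was lower than in naive cells by a fitted −1.13 (−1.42 to −0.85, adjusted p = 1.86e-06), while PIM2 differed by −0.07 (−0.46 to 0.31, adjusted p = 0.826) and PIM3 by 0.26 (−0.10 to 0.62, adjusted p = 0.312). Without CYT387 library 2 the values were −1.05 for PIM1 (adjusted p = 1.05e-10), 0.046 for PIM2 (adjusted p = 0.749) and 0.27 for PIM3 (adjusted p = 0.253). With all libraries that is 1 of 3 genes lower, beside 12.0% of all genes. The mean hides the spread between lines, since PIM1 ran from −2.52 to −0.11. With the DMSO cells as the control, a choice made after seeing the data, the direction of PIM1 turned in 3 of 4 lines. It was then higher by 1.25 in the CYT387, 0.54 in the INC424 and 1.74 in the SAR302503 line, and lower by a fitted −0.67 in the BMS911543 line. PIM2 was higher than DMSO by 1.58, 1.54 and 1.68 in the same 3 lines and differed by 0.52 in the BMS911543 line (adjusted p = 0.131). PIM3 differed from DMSO by −0.44 to 0.28 and passed in none of the 4. Beside these counts, 19.0% of all genes were higher than DMSO in the CYT387, 15.9% in the INC424 and 16.3% in the SAR302503 line, and 10.6% were lower in the BMS911543 line.

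The lines were compared with each other in 6 pairs. Concentrations are not given in the labels, so it is not known whether the doses matched, and line and compound cannot be told apart. With all libraries PIM1 passed in 6 of 6 pairs, but the difference between CYT387 and SAR302503 lost its call under several alternatives. It was lower in the BMS911543 line than in the CYT387 (log2 −1.92, adjusted p = 2.77e-08, and −2.25 without CYT387 library 2), INC424 (−1.21, adjusted p = 3.21e-05) and SAR302503 (−2.41, adjusted p = 8.84e-10) lines. It was lower in the INC424 than in the SAR302503 line (−1.20, adjusted p = 3.89e-05) and higher in the CYT387 than in the INC424 line (0.71, adjusted p = 0.00432), where the groups overlapped through CYT387 library 2. That difference was 1.04 without library 2 (adjusted p = 6.52e-08) and did not pass in a fit of the 2 lines alone (adjusted p = 0.191). The lower value in the CYT387 than in the SAR302503 line (−0.49, adjusted p = 0.0415) was −0.16 without CYT387 library 2 (adjusted p = 0.275), and it did not pass with edgeR on all libraries (−0.43, adjusted p = 0.0657) or without any 1 of the SAR302503 libraries (adjusted p = 0.0595 to 0.113).

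PIM2 passed in 3 of 6 pairs, those of the BMS911543 line, which was below the CYT387 (−1.06, adjusted p = 0.00158), INC424 (−1.02, adjusted p = 0.00376) and SAR302503 (−1.16, adjusted p = 0.000875) lines. The BMS911543 and CYT387 libraries overlapped, and the difference was −1.54 without CYT387 library 2 (adjusted p = 1.79e-09) and did not pass in a fit of the 2 lines alone (adjusted p = 0.120). Without CYT387 library 2 the CYT387 line was also above the INC424 line by 0.51 (adjusted p = 0.00413) and above the SAR302503 line by 0.37 (adjusted p = 0.0314). The INC424 and SAR302503 lines differed by −0.14 (−0.62 to 0.35). PIM3 passed in 1 of 6 pairs, BMS911543 below CYT387 (−0.73, adjusted p = 0.0151, and −0.75 without CYT387 library 2). It did not pass in a fit of the 2 lines alone (adjusted p = 0.0515) or without BMS911543 library 2 or 3 (adjusted p = 0.0840 and 0.0564). Of all genes, 31.4% changed between the BMS911543 and CYT387 lines, 16.5% between BMS911543 and INC424, 25.5% between BMS911543 and SAR302503, 24.4% between CYT387 and INC424, 26.3% between CYT387 and SAR302503, and 12.7% between INC424 and SAR302503.

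Ordered by mean, PIM1 rose from INC424 4 h through INC424 48 h, the BMS911543 line, DMSO, the INC424 line, the CYT387 line and the SAR302503 line to naive cells. Its neighbours overlapped only between the INC424 and CYT387 lines, through CYT387 library 2, and between the SAR302503 line and naive cells. PIM2 rose from INC424 4 h through INC424 48 h, DMSO, the BMS911543 line, naive cells, the INC424 line and the SAR302503 line to the CYT387 line, and all neighbours from naive cells upward overlapped. PIM3 rose from the BMS911543 line through INC424 4 h, INC424 48 h, naive cells, the INC424 line, DMSO and the SAR302503 line to the CYT387 line, and every pair of neighbours overlapped.

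Per length, the family members ranked PIM1, PIM2, PIM3 in most libraries. Counts were divided by the exon length of each gene in GENCODE 29 (2650, 2075 and 2369 bases), which is not the annotation the counts were made with. In naive cells the levels were then 12615 ± 351 normalised counts per kilobase for PIM1, 3026 ± 152 for PIM2 and 501 ± 78.0 for PIM3. PIM1 was above PIM2 and above PIM3 in 24 of 24 libraries. PIM2 was above PIM3 in 21 of 24, and the exceptions were the 3 libraries of INC424 at 4 h, where PIM2 was at 338 ± 19.5 and PIM3 at 473 ± 43.5 per kilobase.

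**Figure D3:**
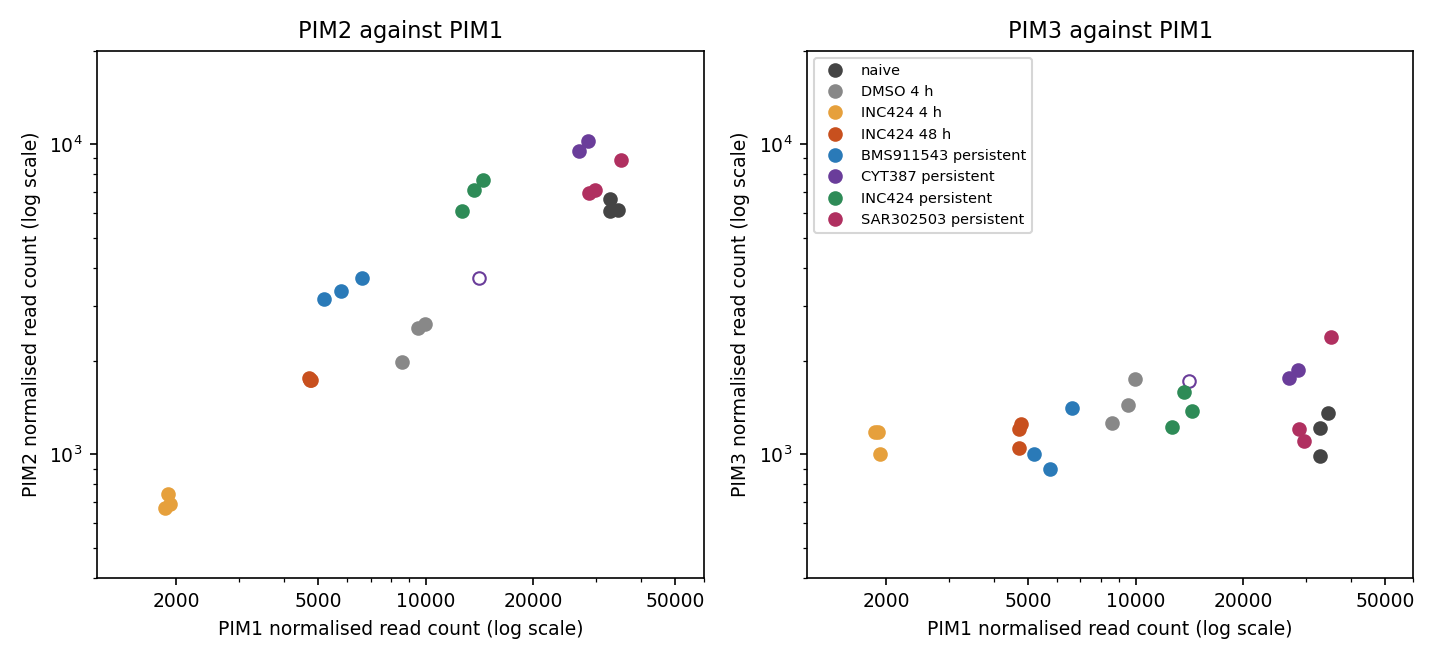
Normalised read counts of PIM2 and of PIM3 against PIM1, 1 point per library (both axes logarithmic), with colour for the group and the open circle for CYT387 library 2. PIM2 rose with PIM1 across the libraries, while PIM3 stayed between 894 and 2391 over the whole range of PIM1.

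PIM1 and PIM2 varied together over the series, with a Pearson correlation of 0.93 over the 8 group means of log2 counts and 0.93 over the 24 libraries. PIM3 correlated less, at 0.58 with PIM1 and 0.56 with PIM2 over group means. These are descriptions, since the points share libraries, depth and the same treatments. Among 13991 genes with a mean of at least 50, the 5 whose group means ran most like PIM1 were COMMD1 (0.96), UBAC1 (0.96), NPM2 (0.94), RPL36AL (0.94) and DPY19L4 (0.94). For PIM2 they were SNHG15 (0.96), BCL2L1 (0.96), PMAIP1 (0.96), COMMD1 (0.94) and RPL22 (0.93). BCL2L1 encodes the anti-apoptotic protein BCL-XL and PMAIP1 the pro-apoptotic protein NOXA. For PIM3 they were IER3 (0.97), CANT1 (0.97), C14orf119 (0.97), ARPC1A (0.95) and WNT10B (0.95). Over the 24 single libraries BCL2L1 and PMAIP1 ranked 1st and 2nd for PIM2 (0.95 and 0.94) and PIM2 ranked 1st for PIM1, whereas COMMD1 dropped to rank 541 for PIM1 (0.60) and IER3 to rank 288 for PIM3 (0.62).

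Other genes of the pathway were followed as lists of known STAT5 targets, pathway components and PIM substrates. Of 13 other STAT5 targets 8 fell and 0 rose at 4 h against DMSO, beside 3.49% lower and 4.88% higher over all genes, with a median log2 difference of −0.87 against −0.01. The feedback inhibitors SOCS3 (−3.43), CISH (−2.46) and SOCS1 (−1.96) and the transcription regulator ID1 (−3.28) had the largest falls among those that passed. CCND1, a cyclin gene named after its values were seen, differed by −2.31 and did not pass (adjusted p = 0.0979). From 4 h to 48 h 6 of 13 rose and 2 fell, beside 7.03% and 7.69% of all genes, with a median of 0.33 against 0.03. CISH (1.63), ID1 (1.03) and SOCS3 (1.01) rose, while the interleukin receptor gene IL2RA fell by 1.94. At 48 h against DMSO 10 of 13 were lower and 1 higher, beside 16.4% and 17.6% of all genes, with a median of −1.07 against 0.00.

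The gap between DMSO and naive cells that PIM1 and PIM2 showed was seen in some of these targets. Of the 13, 4 were lower with DMSO and 0 higher, beside 14.6% and 11.4% of all genes, with a median of −0.28 against 0.02. CISH, picked here after its values were seen, was 1249 ± 135 with DMSO and 1178 ± 128 in naive cells (log2 0.08, adjusted p = 0.760). The lower targets included IL2RA (−2.52), the survival gene MCL1 (−0.85) and SOCS2 (−0.77). Over the mean of the persistent lines 5 of 13 were lower and 2 higher than in naive cells, beside 12.0% and 9.79% of all genes, with a median of −0.54 against 0.01 (without CYT387 library 2, 6 lower and 2 higher, median −0.50). SOCS3 was at −0.87, SOCS2 at −0.71 and ID1 at 0.85. These means hide a spread between the lines. With all libraries SOCS3 was 461 in the BMS911543 and 1057 in the INC424 line, against 4021 in naive cells. It was 5970 in the CYT387 and 8401 in the SAR302503 line. ID1 was 331, 472, 1432 and 1326 in the same order of lines, against 403 in naive cells. SOCS2 was 543 to 899 over the lines, against 1105 in naive cells. IL2RA differed by far more than these genes, at 1250 in naive cells. It was 3.61 in the BMS911543, 4.89 in the INC424, 223 in the CYT387 and 59.3 in the SAR302503 line.

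**Figure D4:**
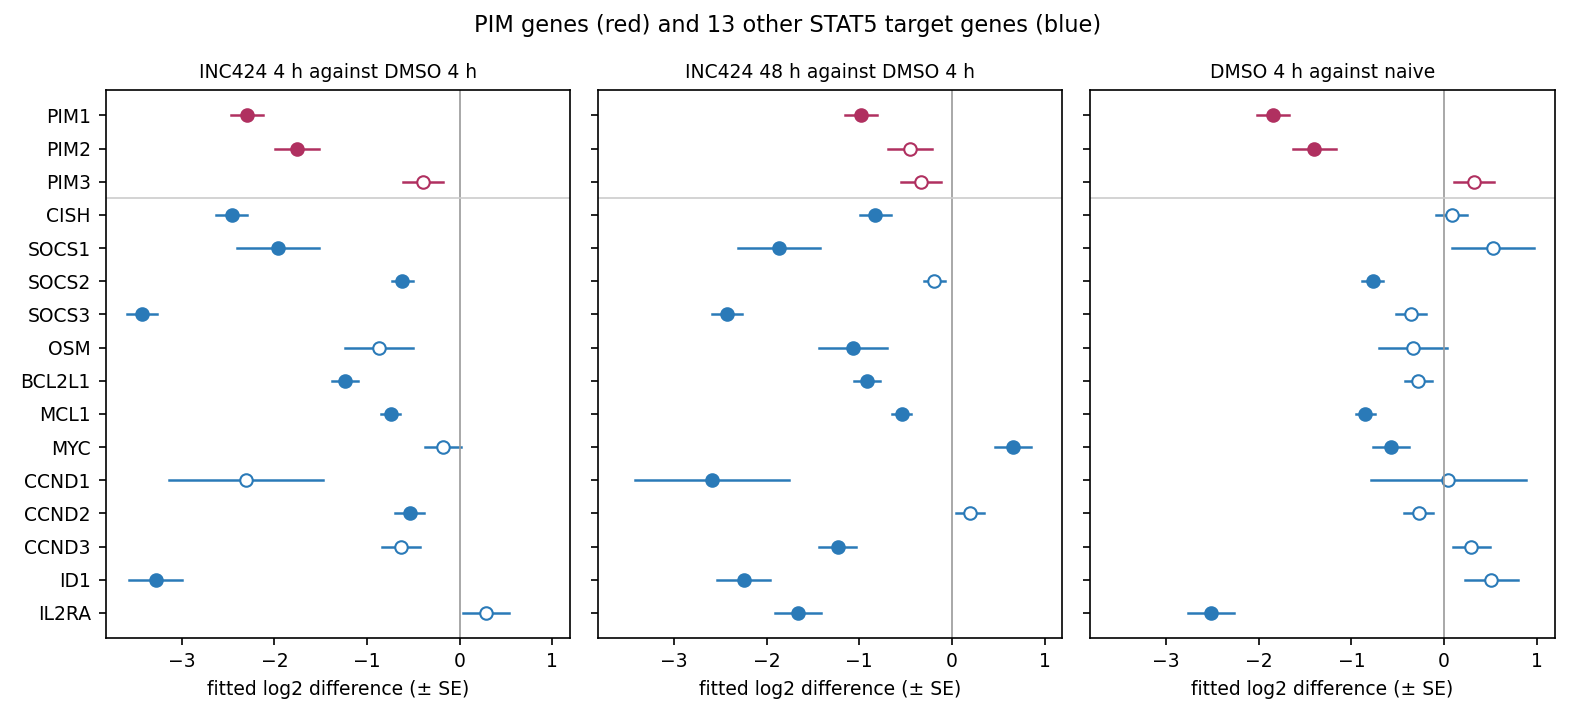
Fitted log2 differences (± SE) of PIM1, PIM2, PIM3 and 13 other STAT5 target genes in the comparisons named on the panels (first group minus second). Filled circles passed at an adjusted p under 0.05 and open circles did not. At 4 h of INC424 against DMSO 8 of the 13 fell along with PIM1 and PIM2, and with DMSO against naive cells 4 of the 13 were lower.

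Of the JAK and STAT genes themselves, STAT5B rose by 0.67 at 4 h against DMSO, and the median over the list of 8 was 0.28. STAT5B was 12440 in naive cells, 5827 with DMSO and 9247 at 4 h. With DMSO against naive cells 0 of the 8 were higher and 3 lower, beside 11.4% and 14.6% of all genes. At 4 h against naive cells 0 were higher and 2 lower, beside 4.81% and 7.03%. Of 16 PIM substrate genes of the cell cycle and of survival, 4 rose at 4 h against DMSO and 1 fell, with a median of 0.11. Of all genes 4.88% rose and 3.49% fell. CDKN1B, which encodes the cell cycle inhibitor p27, rose by 1.04 and the transcription factor gene FOXO3 by 0.77. The phosphatase gene CDC25C rose by 0.71, while CDC25A fell by 0.63. In naive, DMSO and 4 h cells CDKN1B was 1873, 818 and 1681, and FOXO3 2352, 1897 and 3226. In the same order CDC25C was 467, 249 and 406, and CDC25A 2594, 5387 and 3482. With DMSO against naive cells 3 of the 16 were higher and 7 lower, beside 11.4% and 14.6% of all genes. At 4 h against naive cells 1 was higher and 1 lower, beside 4.81% and 7.03%, with a median of −0.14. At 48 h against DMSO 6 of 16 were higher and 3 lower, beside 17.6% and 16.4% of all genes, with a median of 0.49. CDC25A was at −1.82, FOXO1 at 1.13 and CDKN1B at 1.08. At 48 h against naive cells 3 were higher and 3 lower, beside 8.67% and 11.4%, with a median of −0.11.

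Of 8 genes of translation control 1 fell at 4 h against DMSO (EIF4A1, the helicase of the cap-binding complex, −0.68) and 0 rose. Of all genes 3.49% were lower and 4.88% higher, and the list had a median of −0.04. At 48 h 2 were higher and 4 lower, beside 17.6% and 16.4% of all genes, with a median of −0.20, among them the cap-binding protein gene EIF4E (−0.79). Of 10 genes of the AKT, SGK and S6 kinases, which share substrates with the PIM kinases, 1 fell at 4 h (RPS6KB1, −0.48) and 0 rose, beside the same shares at 4 h, with a median of −0.16.

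Of the 5 genes of HSP90 and HSP70 chaperones, clients of which include PIM1, 2 fell at 4 h against DMSO, beside 3.49% of all genes. HSPA8 fell by 1.64 and HSPA1B by 1.47, with a median of −1.44 over the list. The DMSO cells stood above naive cells in 3 of the 5 and below in 0, beside 11.4% and 14.6% of all genes, with a median of 0.78. At 4 h against naive cells 1 was lower and 0 higher, beside 7.03% and 4.81%, with a median of −0.25. HSPA1B has a near-identical copy, HSPA1A, so its counts are uncertain. Of 7 genes of NF-kB, HOXA9 and KLF5, other regulators of PIM transcription, 1 rose at 4 h against DMSO (NFKB2, 0.47) and 0 fell. Of all genes 4.88% rose and 3.49% fell, and the list had a median of −0.05. NFKB2 was 1584 in naive cells, 837 with DMSO and 1156 at 4 h. At 4 h against naive cells 0 of the 7 were higher and 1 lower, beside 4.81% and 7.03% of all genes. In the CYT387 line against naive cells 3 of the 7 were higher, beside 11.2% of all genes, NFKBIA by 1.26, RELB by 0.99 and NFKB2 by 0.81. From lowest to highest library, NFKBIA was 914, 997 and 4184 in that line, against 608 to 713 in naive cells, so 1 library raised its mean. RELB was 850, 932 and 1353, against 462 to 550, and NFKB2 was 2621 to 2869, against 1375 to 1736. Without CYT387 library 2 the count was also 3, with a median over the 7 of 0.55 in place of 0.81. For all lists, counts and medians are descriptions, with no test of the list.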

How the data were processed

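The authors deposited normalised read counts, a signal per gene and library that, as the values show, is counts scaled by 1 factor per library. DESeq 1.10.1, BWA 0.7.5.1 and HTSeq 0.5.3p3 are named without roles, per the submitters' processing notes. Values in 24 of 24 libraries were whole multiples of 1 step within 0.01 (100% of values), which says nothing in 3 libraries whose step is within 0.01 of 1. Dividing by the step recovered the reads, on which the genes called by edgeR at 4 h against DMSO were 1703.

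Values were tested as log2(count + 1) in a single limma 3.58.1 fit (R 4.3.3, trend) of 8 groups with 16 residual degrees of freedom, Benjamini-Hochberg over 20154 genes with at least 10 in at least 3 libraries. The script was tested on simulated data. Alternatives were pseudocounts of 0.5 and 10, no filter, TMM and upper-quartile scaling, a replicate block, a run-again term, the compared groups alone, edgeR 4.0.16 and DESeq2 1.42.0 on recovered reads, and leaving out each library.

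The members and lists were chosen with earlier results of these data known. Named genes are the PIM genes, for each the 5 most alike in group means, and up to 4 members per list with the largest change past the threshold. Marker genes of the cell line and CISH as printed were picked after their values were seen. Some genes that the rule allows are not reported here. No library pair was a duplicate. Lists of lymphoid, stromal, squamous and megakaryocyte markers were summed per library, and lymphoid markers took at most 0.00568% of reads in any.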

Additional observations from a re-analysis of the deposited data

Results flagged for a closer look

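Differences between persistent lines that passed in limma with all libraries are given here. PIM1 was lower in the BMS911543 line than in the CYT387 line (log2 −1.92), the INC424 line (−1.21) and the SAR302503 line (−2.41). It was higher in the CYT387 than in the INC424 line (0.71, or 1.04 without CYT387 library 2) and lower in the CYT387 than in the SAR302503 line (−0.49, or −0.16 without CYT387 library 2, adjusted p = 0.275, and not past the threshold with edgeR). It was lower in the INC424 than in the SAR302503 line (−1.20). PIM2 was lower in the BMS911543 line than in the CYT387 (−1.06), INC424 (−1.02) and SAR302503 (−1.16) lines, and PIM3 lower in the BMS911543 than in the CYT387 line (−0.73). The changes of PIM1 and PIM2 in the INC424 line against naive cells were higher than those after 4 h of INC424 against DMSO, by 0.99 and 1.90. The part of dose, line history and vehicle in these differences was not tested.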

How the results depend on the processing

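The 3 PIM genes gave 60 fitted differences and 1065 values under alternatives. Of these 1001 kept the direction and the side of the threshold, 15 lost and 16 gained significance and 33 changed sign. Some alternatives can move only the p-value and not the difference, such as no filter or leaving out a library of neither group. The total also holds the values with DMSO in place of naive cells as the control, which is another comparison. With the compared groups alone, PIM3 passed at 4 h (−0.40) and 48 h (−0.33) against DMSO and PIM2 at 48 h (−0.45), while PIM1 in the CYT387 line (−0.59, adjusted p = 0.312) did not. PIM3 in the CYT387 line passed with the replicate block (0.60), the run-again term (0.60) and DESeq2 (0.59). The block changed no other call of a PIM gene. Same-numbered libraries did not deviate together: every such correlation was over 0.1 in 1 of 28 pairs of groups, and 25 of 84 comparisons were best with the own number.

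Signs changed for PIM3 at 48 h against naive (0.036 with upper-quartile scaling), PIM2 between the CYT387 and INC424 lines (−0.034 with TMM, −0.088 with upper-quartile scaling), PIM2 between the CYT387 and SAR302503 lines (0.029 with edgeR, 0.030 with DESeq2), and PIM3 between the INC424 and SAR302503 lines (0.020 with the run-again term). Upper-quartile scaling moved the median of all genes by 0.13 between the BMS911543 and CYT387 lines and by −0.13 between the CYT387 and INC424 lines. With DMSO as the control of the lines, added after seeing the data, PIM1 was 1.25, 0.54, 1.74 and 0.71 in the CYT387, INC424 and SAR302503 lines and the mean of 4. PIM2 was 0.52 in the BMS911543 line, 1.58, 1.54 and 1.68 in the others in the same order, and 1.33 in the mean. PIM3 was −0.081, −0.00067 and −0.061 in the INC424 and SAR302503 lines and the mean. The cause of these changes was not tested.

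Leaving out 1 library at a time, the CYT387 line against naive ranged from −0.78 to −0.27 for PIM1 and −0.081 to 0.65 for PIM2, the mean of the lines from −0.14 to 0.046 for PIM2, and 48 h against DMSO from −0.58 to −0.37 for PIM2. PIM3 ranged from −0.31 to 0.015 in the BMS911543 line, −0.031 to 0.53 in the SAR302503 line, −0.014 to 0.14 from 4 h to 48 h, and against naive −0.20 to 0.025 at 4 h and −0.14 to 0.090 at 48 h. Between lines, PIM2 ranged from −0.22 to 0.51 (CYT387 against INC424) and −0.36 to 0.37 (CYT387 against SAR302503), and PIM3 from −0.29 to 0.27 (INC424 against SAR302503).

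The number of genes called, which the shares of all genes rest on, was 1687 at 4 h against DMSO, 5190 with the 2 groups alone and 930 to 3316 with 1 library left out, the highest without CYT387 library 2. With the compared groups alone it went from 6840 to 10669 at 48 h against DMSO, from 2967 to 7686 between 4 h and 48 h, from 4501 to 590 in the CYT387 line and from 4396 to 2776 for the mean of the lines. Between lines it went from 6333 to 2158 (BMS911543 and CYT387), 3329 to 6360 (BMS911543 and INC424), 4911 to 1329 (CYT387 and INC424) and 5305 to 613 (CYT387 and SAR302503). Against naive it went from 2387 to 4114 at 4 h and 4039 to 6376 at 48 h, in the INC424 line from 4712 to 7842 against 4 h and 6031 to 9287 against 48 h, and from 3935 to 6658 for the difference of the INC424 changes. Without CYT387 library 2 it was 6090 in place of 3888 in the SAR302503 line and 4519 in place of 2566 between the INC424 and SAR302503 lines.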
